A study of Mus musculus with 8 samples.

Results

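The genes described here encode 10 proteins stored in neutrophil granules, grouped by the granule they fill: primary (Mpo, Elane, Prtn3 and Ctsg), secondary (Ltf, Camp, Ngp and Lcn2) and tertiary (Mmp8 and Mmp9). They were taken by symbol, as all probe sets that the platform annotation assigns to exactly 1 of these genes, which gave 11 of the 45101 probe sets on the array, 1 per gene and 2 for Mmp9. All 11 lay in the brighter part of the array that was tested, 22518 probe sets in all.

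Total RNA of spleen cell suspensions, with red cells lysed, was measured on 1 Affymetrix array per sample in male mice 8 weeks old. There were 4 samples of B6.SB-Yaa/J, a strain that carries the Yaa Y chromosome on a C57BL/6 background, and 4 of wild-type C57Bl/6J. On the Yaa Y chromosome lies a translocated segment of the X chromosome with Tlr7 on it, as is known from other work. RNA of a single spleen was used per array, apart from Yaa 3, for which 2 spleens were pooled, and one label of Yaa 2 speaks of males in the plural. Numbers 1 to 4 within a group are those of the sample titles. The question was which of these genes differed between Yaa and wild-type spleen cells. The array measures a mixture of cells, so fewer cells of a type and less RNA per cell cannot be told apart.

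Neutrophils fill their granules in order as they mature. Promyelocytes transcribe the primary granule genes, myelocytes and metamyelocytes the secondary granule genes, and band cells the tertiary granule genes, and each set is largely switched off when the next stage begins. Mature neutrophils carry the early granule proteins but little of their mRNA, so transcripts of early stages are known as marks of granulocyte precursors. The mouse spleen keeps some production of granulocytes and red cells after birth.

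The arrays Yaa 2 and Yaa 3 differed from the rest in the cells they held markers of. In Yaa 3 the defining markers of lymphocytes were near 0: the B cell gene Ms4a1 had a signal of 0.865 and the T cell gene Cd3d of 5.16, against 3356 to 5973 and 938 to 1733 in the other Yaa samples and 3195 to 4279 and 648 to 1108 in wild type. The array of Yaa 3 did not hold the lymphocytes of a spleen cell suspension at the level of the other 7. In Yaa 2 the 8 tested erythroid markers were low, with a mean log2 signal of 10.39, against 11.93 to 12.49 in the other Yaa samples and 11.86 to 12.34 in wild type. The trimmed mean signal of the arrays as deposited ran from 106.9 to 163.3 in Yaa and from 144.2 to 193.1 in wild type. All other signals, those of the markers above included, are quantile normalized, a scaling that gives every array the same distribution. Fold changes are differences of log2(signal + 16), so the change of a dim probe set comes out smaller than it is, and each comes from limma, a linear model fitted over all 22518 probe sets with p-values adjusted by Benjamini-Hochberg and a threshold of 0.05. The signal of 1 probe set is not set against that of another.

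All 10 genes had higher means in Yaa than in wild type, and in each of them Yaa 1, Yaa 3 and Yaa 4 lay above every wild-type sample. Yaa 2 lay within or below the wild-type range in the 8 primary and secondary granule genes. In the 2 tertiary granule genes it lay above that range, narrowly so in Mmp8, at 118 against at most 104 in wild type. The median log2 fold change was 1.55 over the 10 genes and -0.01 over all tested probe sets. With all 8 arrays 0 of the 11 probe sets passed limma's adjusted threshold, where 0.00444% of all tested probe sets were called higher, and 8 of the 11 had an unadjusted p under 0.05 on the higher side, where 2.97% of all did. A log2 fold change above 1 was found for 11 of 11, where the share of all tested probe sets was 0.435%.

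**Figure D1:**
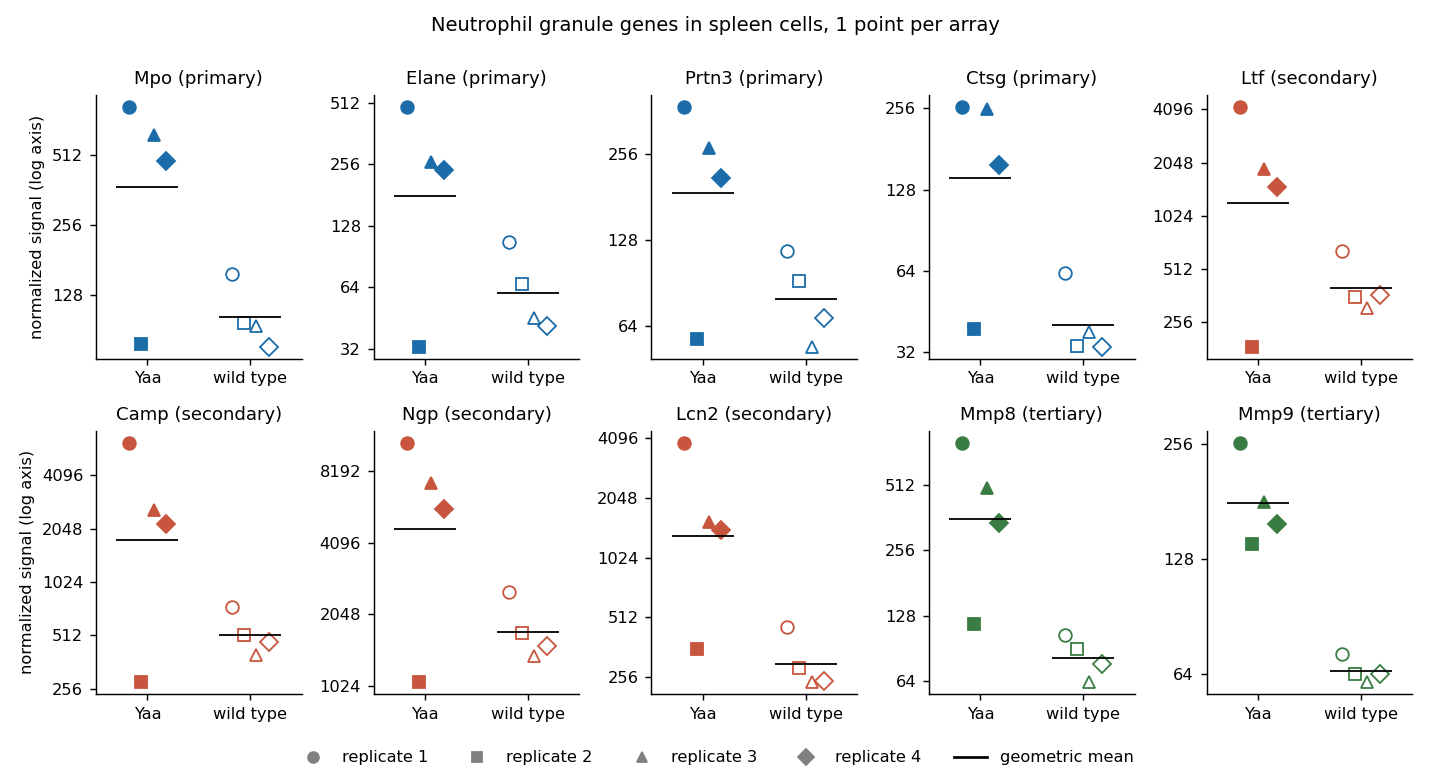
Normalized signal of each granule gene (log axis, a scale of its own per gene) in 4 Yaa samples (filled, left) and 4 wild-type samples (open, right), with 1 point per array, a shape per replicate number and a line at the geometric mean. The square of Yaa 2 lies among or under the wild-type points in the 8 primary and secondary granule genes and above them in Mmp8 and Mmp9.

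Primary granule genes encode the microbicidal enzymes of the azurophil granule. Mpo encodes myeloperoxidase, which makes hypochlorous acid from hydrogen peroxide. Its signal was 827, 78.3, 629 and 484 in Yaa 1 to 4, against 158, 96.4, 94.1 and 76.4 in wild type 1 to 4. Of the Yaa samples 3 lay above all wild-type samples, and Yaa 2 lay just above the lowest of them. The log2 fold change was 1.75 ± 0.61 (SE; limma adjusted p = 0.973; two-sided exact permutation p = 0.114). It was 2.45 ± 0.25 (SE; limma adjusted p = 0.0152) without Yaa 2 and 1.52 ± 0.64 (SE; limma adjusted p = 0.708) without Yaa 3.

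Elane encodes neutrophil elastase and Prtn3 proteinase 3, both serine proteases. They lie next to each other on chromosome 10, with 0 annotated protein-coding genes between them. Elane had signals of 486, 32.8, 264 and 240 in Yaa 1 to 4, against 106, 66.4, 45.2 and 41.3 in wild type 1 to 4. Prtn3 had 373, 57.4, 269 and 210 in Yaa 1 to 4, against 117, 91.7, 54.1 and 68.0 in wild type 1 to 4. For Elane Yaa 2 was the lowest of all 8 arrays, and for Prtn3 it was the second lowest, above wild type 3. The log2 fold changes were 1.41 ± 0.63 (SE; limma adjusted p = 0.997) for Elane and 1.11 ± 0.47 (SE; limma adjusted p = 0.997) for Prtn3. Without Yaa 2 they were 2.10 and 1.61 (limma adjusted p = 0.0645 and 0.0800), and without Yaa 3 they were 1.26 and 0.96 (limma adjusted p = 0.715 each).

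As in all 10 genes, Elane and Prtn3 were highest in Yaa 1 and lowest of the Yaa samples in Yaa 2. The 250 bases before the annotated starts of this neighbouring pair are shown because the pair is adjacent. They are RefSeq sequences of GRCm38.p6, chr10:79886062-79886311 for Elane and chr10:79879417-79879666 for Prtn3, both on the plus strand, written 5′ to 3′. Capitals mark the letters GAGGAA, a core of sites for the myeloid factor PU.1, and GCAAT, part of the site of the C/EBP factors, each searched on both strands.
Elane: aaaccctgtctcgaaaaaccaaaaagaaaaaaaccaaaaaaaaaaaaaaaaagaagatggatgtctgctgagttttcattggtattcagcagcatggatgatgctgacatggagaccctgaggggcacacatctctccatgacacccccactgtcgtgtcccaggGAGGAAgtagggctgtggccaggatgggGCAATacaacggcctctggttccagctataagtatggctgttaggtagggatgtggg
Prtn3: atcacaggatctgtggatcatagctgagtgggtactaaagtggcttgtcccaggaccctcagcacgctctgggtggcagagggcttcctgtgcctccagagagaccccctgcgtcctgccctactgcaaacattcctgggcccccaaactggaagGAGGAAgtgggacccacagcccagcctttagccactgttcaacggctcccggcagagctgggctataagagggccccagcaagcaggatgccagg
GAGGAA began at position -85 of Elane and -95 of Prtn3, counted back from the start, and GCAAT at -57 of Elane alone of the pair. RefSeq promoters were found for 9 of the 10 genes, all but Mmp9. Over these 9, GAGGAA was present in 7, against 23.3% of all 32851 promoters of the same length, and GCAAT in 7, against 23.1%. The motifs were chosen with these letters in view, and a match is not a bound site.

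Ctsg encodes cathepsin G, the fourth protease of the primary granule, which mast cells are also known to make. Its signal was 259, 39.0, 255 and 159 in Yaa 1 to 4, against 62.7, 33.8, 37.9 and 33.6 in wild type 1 to 4. Yaa 2 exceeded 3 of the 4 wild-type samples here. The log2 fold change was 1.52 ± 0.48 (SE; limma adjusted p = 0.880; exact permutation p = 0.0571). It was 2.05 ± 0.23 (SE; limma adjusted p = 0.0266) without Yaa 2 and 1.28 ± 0.48 (SE; limma adjusted p = 0.642) without Yaa 3.

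Secondary granule genes encode iron-binding and pore-forming antimicrobial proteins, and 3 of them, Camp, Ngp and Ltf, lie in 1 stretch of chromosome 9, with 8 protein-coding genes between Camp and Ngp and 20 between Ngp and Ltf. Ltf encodes lactoferrin, which binds iron. Its signal was 4213, 186, 1876 and 1480 in Yaa 1 to 4, against 644, 355, 307 and 363 in wild type 1 to 4. Camp encodes the mouse cathelicidin, the precursor of an antimicrobial peptide. Its signal was 6244, 280, 2599 and 2172 in Yaa 1 to 4, against 737, 518, 396 and 472 in wild type 1 to 4. For both genes Yaa 2 was the lowest of all 8 arrays while the other 3 Yaa samples lay above all wild-type samples. The log2 fold changes were 1.58 ± 0.79 (SE; limma adjusted p = 0.997) for Ltf and 1.76 ± 0.78 (SE; limma adjusted p = 0.997) for Camp. Without Yaa 2 they were 2.46 and 2.63 (limma adjusted p = 0.0583 and 0.0359), and without Yaa 3 they were 1.38 and 1.58 (limma adjusted p = 0.715 each). Leaving out Yaa 1 moved them the other way, to 0.996 and 1.16 (limma adjusted p = 0.988 each).

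The upstream sequences of these genes are shown because they stood lowest in Yaa 2 by the largest log2 difference from wild type among the 10 genes. They are RefSeq sequences of GRCm38.p6, chr9:111019042-111019291 on the plus strand for Ltf and chr9:109849457-109849706 on the minus strand for Camp, with capitals as above.
Ltf: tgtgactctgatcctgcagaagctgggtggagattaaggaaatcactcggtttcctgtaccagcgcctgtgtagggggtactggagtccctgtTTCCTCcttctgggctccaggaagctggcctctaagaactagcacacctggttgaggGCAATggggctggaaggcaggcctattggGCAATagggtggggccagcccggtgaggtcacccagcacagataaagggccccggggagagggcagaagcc
Camp: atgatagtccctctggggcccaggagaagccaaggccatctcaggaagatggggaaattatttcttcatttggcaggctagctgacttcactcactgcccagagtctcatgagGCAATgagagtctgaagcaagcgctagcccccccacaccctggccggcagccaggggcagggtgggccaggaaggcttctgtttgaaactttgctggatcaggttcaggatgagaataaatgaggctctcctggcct
GCAAT began at -100 and -71 of Ltf and at -137 of Camp. The GAGGAA core, read on the other strand, began at -157 of Ltf and was not among these letters of Camp.

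Ngp encodes neutrophilic granule protein, a relative of the cathelicidins. Its signal was 10816, 1061, 7345 and 5694 in Yaa 1 to 4, against 2529, 1701, 1365 and 1509 in wild type 1 to 4, so Yaa 2 was again the lowest array. The log2 fold change was 1.43 ± 0.63 (SE; limma adjusted p = 0.997), 2.14 without Yaa 2 (limma adjusted p = 0.0291) and 1.22 without Yaa 3 (limma adjusted p = 0.715). Lcn2 encodes lipocalin 2, which sequesters bacterial siderophores. Its signal was 3899, 352, 1555 and 1409 in Yaa 1 to 4, against 454, 284, 240 and 244 in wild type 1 to 4. Unlike in the other secondary granule genes, Yaa 2 lay above 3 of the 4 wild-type samples. Lcn2 had the largest fold change of the 10 genes, 2.11 ± 0.61 on the log2 scale (SE; limma adjusted p = 0.807; exact permutation p = 0.0571). Without Yaa 2 it was 2.73 (limma adjusted p = 0.0359) and without Yaa 3 it was 2.03 (limma adjusted p = 0.584).

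Tertiary granule genes encode matrix metalloproteinases that leave the cell during migration. Mmp8, the neutrophil collagenase, had signals of 803, 118, 498 and 343 in Yaa 1 to 4, against 104, 89.7, 63.3 and 76.2 in wild type 1 to 4. The groups did not overlap, although Yaa 2 lay close to wild type 1. The log2 fold change was 1.94 ± 0.48 (SE; limma adjusted p = 0.629; exact permutation p = 0.0286, the smallest that 4 against 4 allows). It was 2.44 without Yaa 2 (limma adjusted p = 0.0253) and 1.79 without Yaa 3 (limma adjusted p = 0.499), and without any 1 wild-type sample its exact permutation p was 0.0571.

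Mmp9 encodes gelatinase B, for which the tertiary or gelatinase granule is named. The brighter of its 2 probe sets had signals of 258, 141, 180 and 158 in Yaa 1 to 4, against 72.2, 64.1, 61.2 and 64.1 in wild type 1 to 4. The other had 218, 92.4, 194 and 105 in Yaa 1 to 4, against 64.3, 48.2, 36.7 and 49.4 in wild type 1 to 4. All Yaa samples, Yaa 2 included, lay above all wild-type samples on both probe sets. The log2 fold changes were 1.27 ± 0.18 (SE; limma adjusted p = 0.110) and 1.29 ± 0.27 (SE; limma adjusted p = 0.479), each with an exact permutation p of 0.0286. The brighter probe set had the smallest SE of the 11, and its log2 fold change was 1.38 without Yaa 2 (limma adjusted p = 0.0355) and 1.27 without Yaa 3 (limma adjusted p = 0.125). Across the 11 probe sets, those 2 of Mmp9 and that of Mmp8 were the 3 whose groups did not overlap, where 2.43% of all tested probe sets had all Yaa samples above all wild-type samples.

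The order of the arrays was shared across the granule stages. Yaa 1 was the highest of the 8 arrays in 11 of 11 probe sets, which held for 5.19% of all tested probe sets. Yaa 1, Yaa 3 and Yaa 4 lay above every wild-type sample in 11 of 11, against 4.85% of all. Yaa 2 was the lowest Yaa sample in 11 of 11, against 33.8%, and below the wild-type mean of the normalized signal in 7 of 11, against 46.8%. Within wild type, sample 1 was the highest in 11 of 11, against 34.4%. The 11 probe sets were read from the same 8 RNA samples and are not independent observations.

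Stage means, taken over the genes of a stage after log2, are given as descriptions with no test. The primary granule mean was 7.84 ± 1.25 in Yaa and 6.39 ± 0.38 in wild type (SD, n = 4 each), a difference of 1.45. The secondary granule mean was 10.92 ± 1.64 in Yaa and 9.20 ± 0.40 in wild type (SD, n = 4 each), a difference of 1.72. The tertiary granule mean was 8.09 ± 0.71 in Yaa and 6.48 ± 0.17 in wild type (SD, n = 4 each), a difference of 1.60. The stages were read from the same arrays, so these SDs do not measure the spread of the gaps between stages. Without Yaa 2 the 3 differences were 2.05, 2.49 and 1.91, and without Yaa 3 they were 1.25, 1.55 and 1.53.

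The stages parted within single samples. Relative to the wild-type mean of each gene, Yaa 2 stood at -0.36 for primary, -0.59 for secondary and 0.69 for tertiary granules on the log2 scale, a gap of 1.05 between tertiary and primary. The same gap was -0.05 in Yaa 1, -0.20 in Yaa 3 and -0.18 in Yaa 4, and it ran from -0.33 to 0.24 over the wild-type samples. Yaa 1 was high at every stage and most so for secondary granules, at 2.46, 3.30 and 2.41. Yaa 3 stood at 2.03, 2.22 and 1.83 and Yaa 4 at 1.67, 1.95 and 1.49. The gap in Yaa 2 is that of a single sample and rests on 2 tertiary genes, and it was not tested. Of these, Mmp9 stood at 0.946 in Yaa 2 and Mmp8 at 0.445, with the secondary gene Lcn2 at 0.242. The remaining primary and secondary genes lay below their wild-type means there.

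**Figure D2:**
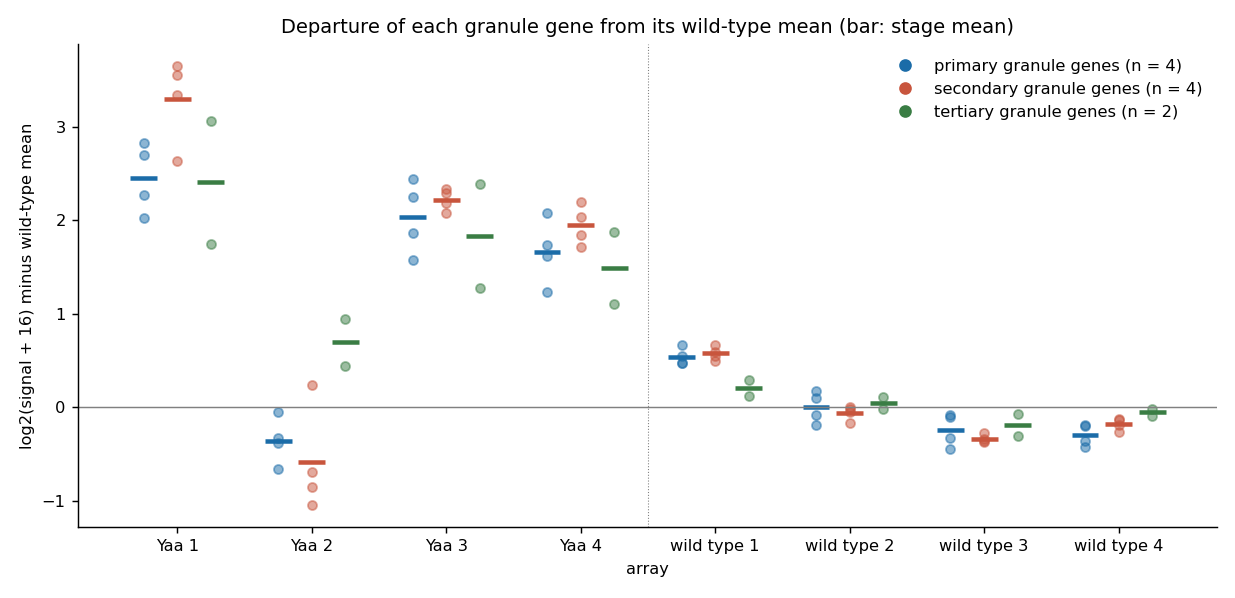
Log2(signal + 16) of each granule gene minus its wild-type mean (vertical axis) in the 8 arrays (horizontal axis), with a point per gene, a bar at the stage mean and colours for primary, secondary and tertiary granules. Yaa 1, 3 and 4 are above 0 for every gene, and in Yaa 2 the tertiary mean of 0.69 stands above the primary mean of -0.36 and the secondary mean of -0.59.

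Giving less weight to arrays that vary more changed the calls. limma's array weights were 0.218 for Yaa 2 and 0.223 for Yaa 3, against 2.23 and 1.13 for Yaa 1 and Yaa 4 and 0.836 to 2.73 for wild type. In that fit all 11 probe sets were called higher, where 0.453% of all tested probe sets were. Their log2 fold changes ran from 1.50 for Mmp9 to 3.04 for Lcn2 (limma adjusted p = 0.00357 and 0.00837). Without Yaa 2 alone 7 of 11 were called higher, where 0.124% of all were, and those of Elane, Prtn3 and Ltf and the dimmer one of Mmp9 were not. Without Yaa 3 alone 0 of 11 were called, 6 with an unadjusted p under 0.05, where 3.86% of all were on the higher side. Without Yaa 2 and Yaa 3 together 10 of 11 were called higher, where 0.329% of all were, leaving 2 Yaa samples against 4 of wild type. Yaa 2 was the lowest Yaa sample in all 11 probe sets, so leaving it out had to raise each fold change. The calls made without it, or with its low weight, are therefore not separate support for a difference.

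**Figure D3:**
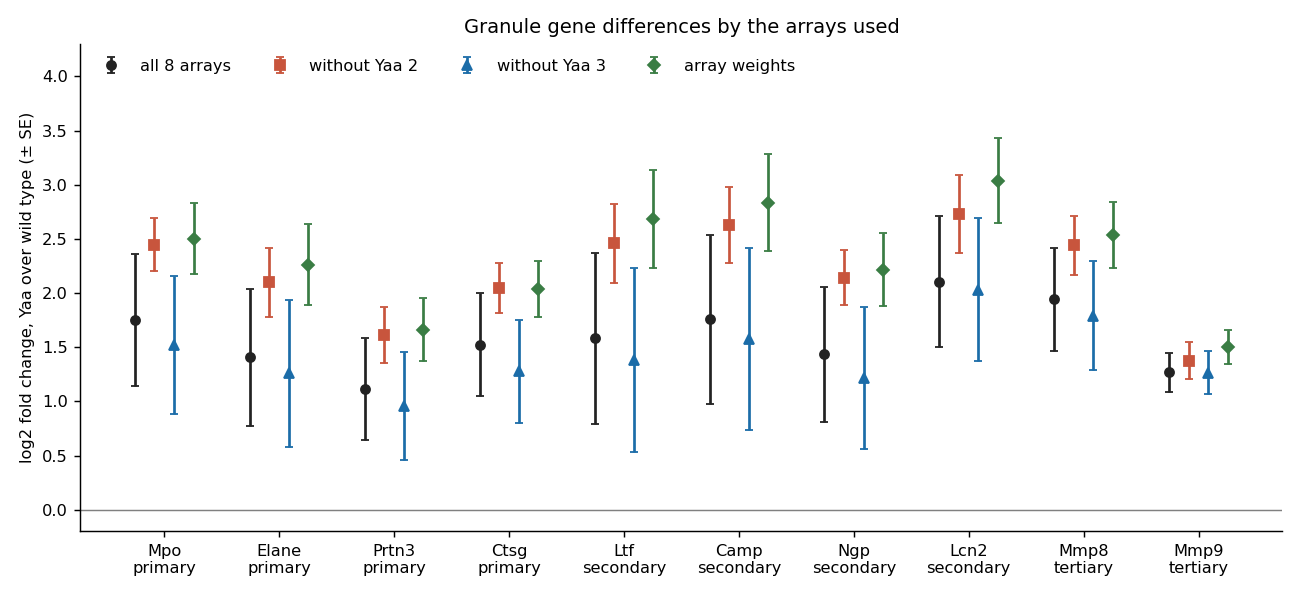
Log2 fold change of Yaa over wild type with its SE (vertical axis) for each granule gene (horizontal axis) from limma with all 8 arrays, without Yaa 2, without Yaa 3 and with array weights. Values lie above 0 in all 4 fits, those without Yaa 2 or with weights are higher than those with all arrays, and Mmp9 moves least, between 1.27 and 1.50.

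Of the proteins that process and store the granule proteases, both tested genes had slightly lower means in Yaa. Ctsc encodes the dipeptidyl peptidase that activates the serine proteases and Srgn the proteoglycan that retains them in granules. Their log2 fold changes were -0.10 ± 0.16 and -0.02 ± 0.13 (SE; limma adjusted p = 0.997 and 0.999). Of 15 listed protease inhibitors 4 were tested. Slpi, an inhibitor of elastase and cathepsin G, had signals of 916, 971, 1530 and 509 in Yaa 1 to 4, against 420, 470, 479 and 459 in wild type 1 to 4, and the stefin gene Stfa2l1 had 70.0, 93.3, 152 and 39.2, against 18.2, 26.0, 31.9 and 29.5. Neither overlapped between the groups, which made 2 of the 4 tested, where 2.43% of all tested probe sets had all Yaa samples above all wild-type samples. Both genes were highest in Yaa 3 and above wild type in Yaa 2. Their log2 fold changes were 0.98 ± 0.28 and 1.20 ± 0.31 (SE; limma adjusted p = 0.807 and 0.690), and 0.732 and 0.935 without Yaa 3. With array weights neither was called (limma adjusted p = 0.131 and 0.115). Serpinb1a, which inhibits elastase, proteinase 3 and cathepsin G, had -0.08 ± 0.49 and the metalloproteinase inhibitor gene Timp2 had 0.21 ± 0.24 (SE), which were 0.45 and -0.03 without Yaa 3.

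Among 8 tested transcription factors of the granule programme, 4 had higher and 4 lower means, and 0 passed limma's adjusted threshold. An unadjusted p under 0.05 was found for 3, all C/EBP genes with higher means, where 2.97% of all tested probe sets had one on that side. Cebpa, of early granulocyte commitment, had signals of 45, 38.5, 47 and 55.2 in Yaa 1 to 4, against 32.6, 26.6, 35 and 21.2 in wild type 1 to 4. It was the 1 gene of the 8 whose groups did not overlap, where 2.43% of all tested probe sets had all Yaa samples above all wild-type samples. Cebpb, of emergency granulopoiesis, had 791, 1331, 991 and 633, against 416, 566, 702 and 533, and Cebpd had 108, 26.9, 111 and 61.5, against 29.4, 46.9, 23 and 26.1. Cebpd thus shared the low value of Yaa 2 with the early granule genes, while Cebpb was highest there. The log2 fold changes were 0.48 ± 0.16, 0.71 ± 0.24 and 0.87 ± 0.35 (SE; limma adjusted p = 0.960, 0.960 and 0.997). Cebpe, the factor of secondary granules, was not named by any probe set with 1 gene symbol. Among the 4 with lower means, Runx1, a partner of the C/EBP factors in myeloid cells, had 100, 99.9, 119 and 154 in Yaa 1 to 4, against 153, 138, 160 and 151 in wild type 1 to 4 (log2 fold change -0.33 ± 0.15 SE; limma adjusted p = 0.997). Gfi1, a repressor needed for granulocyte formation, had the largest log2 difference of the 8, -0.96 ± 0.55 (SE; limma adjusted p = 0.997), and -0.35 without Yaa 3, where its signal was 23.9. The median of the 8 was 0.12.

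Other proteins of granules and their membranes went with the members in part. Of 13 tested genes 12 had higher means, with a median log2 fold change of 0.91. An unadjusted p under 0.05 was found for 8, where 2.97% of all tested probe sets were higher at that level, and 0 passed limma's adjusted threshold. With array weights 5 were called higher, where 0.453% of all were. Lyz2, encoding lysozyme, which macrophages also make, had 0.98 ± 0.19, the haptoglobin gene Hp 1.46 ± 0.32, Pglyrp1, encoding a peptidoglycan-binding protein, 1.20 ± 0.30, and the membrane metalloproteinase gene Adam8 0.89 ± 0.23 (SE; limma adjusted p 0.412 to 0.685). These 4 had the smallest p of the list. They were among 5 of the 13 whose groups did not overlap, where 2.43% of all tested probe sets had all Yaa samples above all wild-type samples.

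Receptors and cytosolic proteins of mature neutrophils had a mean signal above all wild-type samples in every Yaa sample, Yaa 2 included. All 8 tested genes of that list had higher means, with a median of 1.23. Of them 6 had an unadjusted p under 0.05, where 2.97% of all tested probe sets were higher at that level, and 4 had groups that did not overlap, where 2.43% of all did. The list's mean log2 signal was 9.79, 9.39, 10.11 and 9.11 in Yaa 1 to 4, against 8.67, 8.52, 8.36 and 8.35 in wild type 1 to 4. Il1r2, the decoy receptor for interleukin 1, had 723, 1339, 1111 and 603 in Yaa 1 to 4, against 291, 423, 447 and 446 in wild type 1 to 4, and so was highest in Yaa 2. Trem1, an amplifying receptor of phagocytes, had 276, 415, 489 and 217, against 117, 130, 117 and 111. Fpr2, S100a8, S100a9 and Mxd1 were lowest of the Yaa samples in Yaa 2, as were the granule genes, and Il1r2, Trem1, Cxcr2 and Csf3r in Yaa 4. Groups overlapped for S100a8, Mxd1, Cxcr2 and Csf3r. Mxd1 was 424 in Yaa 2, against 589 to 717 in wild type, and Cxcr2 5.41 in Yaa 4, against 4.96 to 36.0. Fpr2, a formyl peptide receptor, had a log2 fold change of 1.56 ± 0.26 and S100a9, a calprotectin subunit, of 1.47 ± 0.27 (SE; limma adjusted p = 0.223 and 0.334). limma called 0 of the 8 with all arrays and 4 with array weights, where 0.453% of all were called higher.

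Of 6 tested genes of early myeloid precursors, 4 had higher and 2 lower means, and limma called 0. Ms4a3, a membrane protein of granulocyte and monocyte precursors, had 159, 22.8, 88.5 and 61.3 in Yaa 1 to 4, against 44.2, 21.8, 25.1 and 20.6 in wild type 1 to 4 (log2 fold change 1.0 ± 0.41 SE; limma adjusted p = 0.997), with Yaa 2 again the lowest Yaa sample. Kit, the stem cell factor receptor, had 0.23 ± 0.18, Csf1r 0.49 ± 0.29 and Myc -0.59 ± 0.51 (SE; limma adjusted p = 0.997 each). Without Yaa 3 these were 0.08, 0.19 and 0.01. The median of the 6 tested genes was 0.18.

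The genes closest to each stage in their profile over the 8 arrays were sought among 10330 other tested genes, by the root mean square difference of centred log2 values. Nearest to the primary granule mean were Fcnb, encoding ficolin B, at 0.28, Cd177, a neutrophil surface protein, at 0.29, Wfdc21 at 0.31, Ms4a3 at 0.38 and Chil1 at 0.38. Nearest to the secondary granule mean were Prg2 at 0.38, Cd177 at 0.39, Chil3, a chitinase-like protein of myeloid cells, at 0.43, Fcnb at 0.48 and Wfdc21 at 0.50. Nearest to the tertiary granule mean were S100a9 at 0.13, Fpr2 at 0.17, Anxa1 at 0.19, Wfdc21 at 0.21 and S100a8 at 0.22. Prg2 encodes the major basic protein of eosinophils, and its signal was 1468, 70.1, 495 and 343 in Yaa 1 to 4, against 287, 130, 138 and 144 in wild type 1 to 4. It was lowest in Yaa 2 and highest in Yaa 1, as were Ltf and Camp.

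Some genes lay nearer to another stage than to their own. Ltf and Camp lay nearer to the mean of the other secondary genes, at root mean square differences of 0.215 and 0.187, than to that of the primary genes, at 0.41 and 0.43. Mpo lay nearer to the secondary mean, at 0.233, than to the other primary genes, at 0.266. Ngp lay nearer to the primary mean, at 0.15, than to the other secondary genes, at 0.28, and Mmp8 nearer to the primary mean, at 0.32, than to Mmp9, at 0.61.

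Markers of other cells moved in some of the same samples. Over 5 tested genes of basophils, mast cells and eosinophils the summed signal was 267 to 1972 in Yaa, lowest in Yaa 2, against 286 to 492 in wild type. All 5 had higher means, with a median log2 fold change of 0.87. The eosinophil genes Prg2 and Epx were lowest in Yaa 2, at 70.1 and 22.2, against 130 to 287 and 23.2 to 62.5 in wild type. Mcpt8, Cpa3 and Gata2 lay above all wild-type samples in every Yaa sample, with 31.0, 43.7 and 100 in Yaa 2, against at most 22.3, 36.8 and 90.2 in wild type. That held for these 3 of the 5 genes, and for 2.43% of all tested probe sets. The brightness filter used the mean over all 8 arrays, so a gene dim in wild type could pass it through its Yaa values. Mcpt8, at 12.2 to 22.3 in wild type, was such a dim gene, so the count of 3 favours genes higher in Yaa. Log2 fold changes were 1.13 for Mcpt8, 0.62 for Cpa3, 0.87 for Epx and 0.37 for Gata2. The defining mast cell and basophil receptor genes Ms4a2 and Fcer1a were too dim to be tested. Over 9 monocyte and macrophage genes the summed signal was 4955 to 12049 in Yaa, highest in Yaa 3, against 4718 to 5567 in wild type, with F13a1 at 1.05, Ccr2 at 0.90, Fcgr4 at 0.84 and Mpeg1 at 0.36 and a median of 0.40. Without Yaa 3 these were 0.74, 0.64, 0.68 and 0.21 and the median 0.21. Over 8 erythroid genes it was 14305 to 54263 in Yaa, lowest in Yaa 2, against 38550 to 49524 in wild type, with Hbb-b2 at -0.76, Trim10 at -0.44, Alas2 at -0.41 and Slc4a1 at -0.31 and a median of -0.34. Without Yaa 2 these were -0.25, 0.01, -0.01 and 0.05 and the median 0.06. limma called 0 genes of these 3 lists with all arrays.

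B cell markers, 5 tested, summed to 250 in Yaa 3 and 9484 to 16509 in the other Yaa samples, against 9692 to 13986 in wild type, and T cell markers, 6 tested, to 119 in Yaa 3 and 2411 to 4434 in the other Yaa samples, against 1899 to 2965 in wild type. Cd79a, Cd79b, Cd22 and Pax5 had log2 fold changes of -1.77, -1.25, -1.16 and -0.40, which were -0.15, -0.17, -0.13 and -0.11 without Yaa 3. Cd3e, Cd3d, Cd5 and Lef1 had -0.93, -1.07, -0.68 and -0.59, which were 0.07, 0.38, 0.12 and 0.09 without Yaa 3. limma called 0 of both lists. The part of these cell types in the granule gene differences was not tested.

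**Figure D4:**
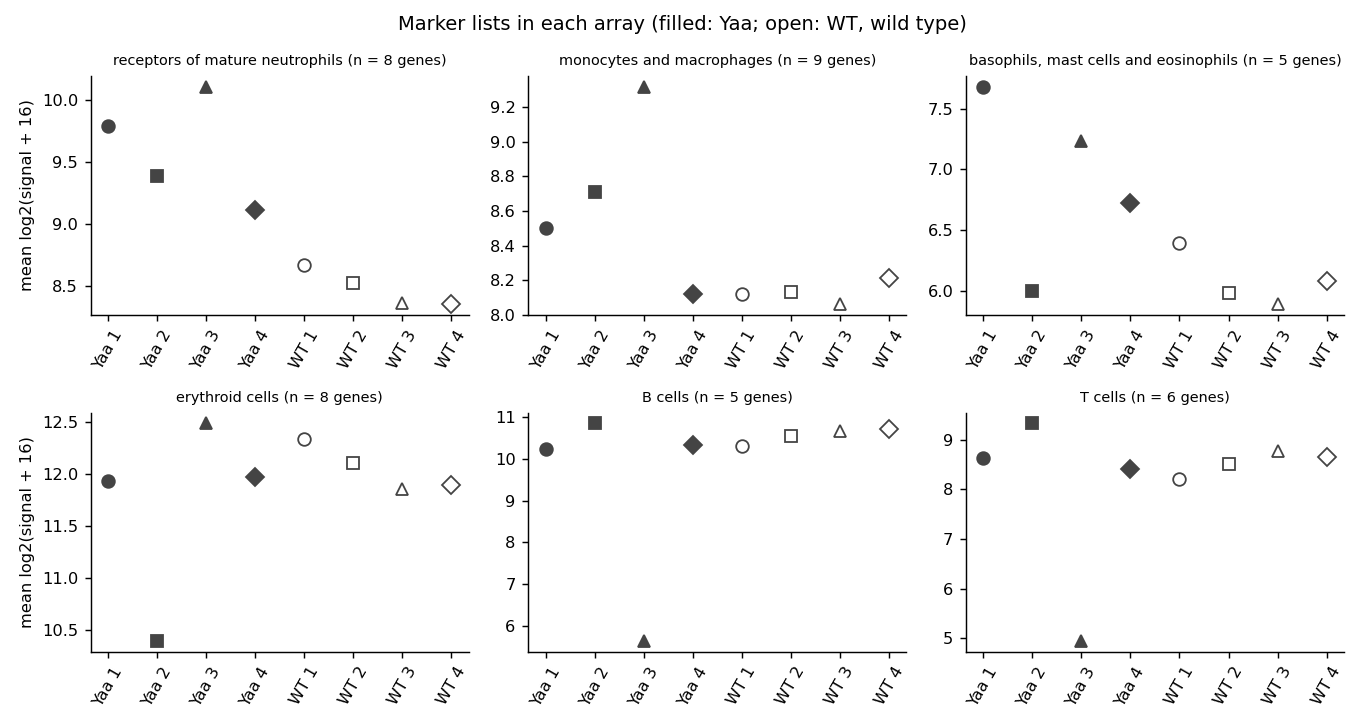
Mean log2(signal + 16) of 6 lists of cell type markers (vertical axes, a scale of its own per list) in each array, Yaa filled and wild type open. The mean of the mature neutrophil list is above all wild-type samples in all 4 Yaa samples, which does not hold for each of its genes. The erythroid mean is lowest in Yaa 2 at 10.39, and the B and T cell means are lowest in Yaa 3 at 5.65 and 4.95.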

How the data were processed

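Expression was measured on 8 arrays. The authors deposited 1 MAS5 intensity for every probe set, not log-transformed, as the submitters' processing notes and the values show; version and scaling target of MAS5 are not stated there. Trimmed means were not all within 10% of their median, so arrays were quantile normalized before log2(signal + 16). Left out were 64 controls and the dimmer 50% of the other probe sets by mean log2 signal over all 8 arrays. A gene dim in wild type could thus pass through its Yaa values. Gene names come from the platform annotation, updated by Entrez ID, with 34945 probe sets naming 1 gene. The brightest probe set stood for a gene.

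Yaa and wild type, 4 samples each, were compared with limma 3.58.1 in R 4.3.3 (trended eBayes), tested on simulated data. Exact permutation tests were two-sided over 70 arrangements, with a smallest p of 0.0286. The number of arrays limits the precision. Members, lists and alternatives were chosen with earlier results of these data known. Named are the members, up to 4 genes of each further list by smallest p, and the 5 genes nearest to each stage. Ms4a1, Gfi1, Cxcr2, Csf3r and Mxd1 were named after their values were seen. Alternatives were other pseudocounts, scalings, filters and variance models, array weights, a replicate block and samples left out.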

Additional observations from a re-analysis of the deposited data

How the results depend on the processing

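Across 171 values of the 10 genes under the alternatives, 0 changed sign, 27 passed limma's adjusted threshold where the fit with all 8 arrays did not, 143 stayed on the same side of it, and the mean of both Mmp9 probe sets, 1.28, had no p. The median log2 difference of all tested probe sets was -0.20 with values as deposited and -0.11 with median centring, against -0.01 with quantile normalization, and the log2 fold changes of the 10 genes then ran from 0.91 for Prtn3 to 1.92 for Lcn2 and from 1.0 to 2.01. Over all probe sets limma called 1 higher and 0 lower with all arrays. With pseudocount 1 it called 7 higher. With array weights it called 102 higher and 41 lower, among them the 10 genes. Without Yaa 2 and Yaa 3 together it called 74 higher and 29 lower, among them again the 10 genes. With single samples left out it called 1 to 28 higher and 0 to 3 lower, with 28 without Yaa 2 and 9 without Yaa 4, and 0 to 7 of the 10 genes, with 7 without Yaa 2. As Yaa 2 was the lowest Yaa sample in each of the 10 genes, their calls without it or with its low weight are not separate support. Exact permutation p was under 0.05 for 2 of the 10 genes with all arrays, for 10 without Yaa 2 and for 1 without any 1 wild-type sample. It was so for 0 without Yaa 2 and Yaa 3, where 2 against 4 samples cannot reach that level. Left out singly, samples gave 1 to 10. The count of 10 restates that Yaa 1, Yaa 3 and Yaa 4 lay above every wild-type sample in each gene. That order fixes the exact permutation p at its smallest value, so the count is no further result. The primary, secondary and tertiary stage differences ran from 1.11 to 2.05, 1.20 to 2.49 and 1.34 to 1.91 with single samples left out, lowest without Yaa 1 and highest without Yaa 2. The deviations of same-numbered samples had correlations of -0.005, 0.016, -0.367 and -0.128. Yaa 2 and Yaa 3 had -0.63 and 0.517 with wild type 1. With 4 samples per group and these arrays among them, the check cannot show whether the numbers pair samples. With the replicate block limma called 0 probe sets.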
